A study of Rattus norvegicus with 24 samples.

Results

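rno-miR-32, rno-miR-488 and rno-miR-338 are 3 of the 677 rat miRNAs on the array, found by an exact match of their names. The 3 were chosen by their measured level, which was higher in peripheral blood mononuclear cells (PBMC) of arthritic rats after 34 days of mechanical stimulation than in arthritic rats before therapy. Each lies inside a protein-coding gene. Any comparison of these miRNAs that holds the arrays of one of those 2 groups is therefore given as a description, with no test. The animals were female Wistar rats, all shaved, and each of the 12 groups was measured in 2 animals, with 1 array for each. Healthy animals (NOCIA, called NORA in the labels) were sampled before therapy, at 1 hour and at 34 days. All other animals had collagen-induced arthritis (CIA, called RA in the labels), a model of rheumatoid arthritis raised by immunisation with bovine type II collagen in Freund's adjuvant. CIA animals were sampled before any therapy, and at 1 hour and 34 days under mechanical stimulation with a subcutaneous needle (MS, called AP in the labels), under methotrexate (MTX), under its saline placebo (PLA), or with no therapy and isoflurane in place of ether at blood sampling (ANE). No animal was sampled more than once, since blood was drawn terminally. No untreated arthritic animals were sampled at the later times other than those in PLA and ANE.

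A microRNA is cut from a hairpin precursor, and 1 arm of the hairpin is usually kept as the mature strand. It pairs with messenger RNAs mainly through its seed, bases 2 to 8, and represses them. An intronic miRNA lies within a host gene on the same strand and can be made from the host's transcript or from a start site of its own. miR-32 belongs to the miR-25/92 seed family. miR-488 lies in the gene of astrotactin 1, a neuronal adhesion protein, and miR-338 in that of AATK, an apoptosis-associated kinase abundant in brain. miR-338 is best known from the nervous system, where it takes part in oligodendrocyte maturation.

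The mature sequences are shown because the seed decides which other miRNAs are relatives. They are RefSeq entries on the GRCr8 assembly, written 5′ to 3′, with the seed in capitals. The array gives the names without an arm, and they were read here as the 5p arm of miR-32 and the 3p arm of miR-488 and miR-338.
rno-miR-32-5p: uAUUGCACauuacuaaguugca
rno-miR-488-3p: uUGAAAGGcuguuucuugguc
rno-miR-338-3p: uCCAGCAUcagugauuuuguuga
The seeds of miR-488 and miR-338 occurred in no other of the 693 mature rat miRNAs of the table. The seed of miR-32 occurred in 5, the miRNA itself and 4 relatives, which are shown with the same capitals.
rno-miR-25-3p: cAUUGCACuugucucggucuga
rno-miR-92a-3p: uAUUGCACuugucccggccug
rno-miR-92b-3p: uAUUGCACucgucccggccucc
rno-miR-363-3p: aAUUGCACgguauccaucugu

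The hairpins are shown with the arm read here as the measured one in capitals. Mir32 lies on chromosome 5, chr5:76391285-76391354 on the minus strand, inside Tmem245, which encodes a transmembrane protein. Mir488 lies on chromosome 13, chr13:73216541-73216619 on the plus strand, inside Astn1. Mir338 lies on chromosome 10, chr10:105796342-105796407 on the minus strand, inside Aatk, and overlaps Mir3065 on the opposite strand. Each has the strand of its host.
Mir32: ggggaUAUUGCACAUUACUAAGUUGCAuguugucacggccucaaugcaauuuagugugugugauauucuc
Mir488: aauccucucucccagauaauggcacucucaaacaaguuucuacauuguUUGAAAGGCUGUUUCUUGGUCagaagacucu
Mir338: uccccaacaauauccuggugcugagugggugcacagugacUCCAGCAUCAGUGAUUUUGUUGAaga

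The level of a miRNA is its total intensity, scaled per array and given on the log2 scale. Levels are compared between arrays for 1 miRNA, never between miRNAs. Between 145 and 207 miRNAs were detected per array, and their intensities added up to between 137544 and 519917. The 24 arrays lay on 3 slides of 8, and each group lay on 1 slide. In bulk PBMC RNA, fewer cells of a type and less RNA per cell cannot be told apart. A call is an adjusted p under 0.05 in limma over the 210 miRNAs tested. All 3 miRNAs were detected on all 24 arrays. The other arms, rno-miR-32*, rno-miR-488* and rno-miR-338*, were detected on 0 arrays.

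The level of rno-miR-32 ran from 3.97 to 6.83 with a median of 5.08. In NOCIA it was 5.16 and 5.21 before therapy, 4.96 and 5.00 at 1 hour, and 5.38 and 5.84 at 34 days. In CIA before therapy it was 4.33 and 3.97, below all 6 NOCIA arrays. In MS it was 6.06 and 4.69 at 1 hour and 6.83 and 5.32 at 34 days, so the replicates lay further apart than the means of both times. In MTX it was 5.00 and 4.37 at 1 hour and 5.79 and 5.44 at 34 days, with no overlap between the times. In PLA it was 4.58 and 6.31 at 1 hour and 4.71 and 4.52 at 34 days. In ANE it was 5.79 and 4.95 at 1 hour and 5.23 and 4.36 at 34 days. The times overlapped in both of these arms, and replicate 2 of PLA at 1 hour was the second highest of the 24 arrays.

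The level of rno-miR-488 ran from 3.08 to 5.91 with a median of 3.88. Values under a floor of 2.53 were set to it, and none of its arrays was at the floor. In NOCIA it was 3.77 and 4.15 before therapy, 3.24 and 3.49 at 1 hour, and 4.61 and 4.78 at 34 days. The 3 times of NOCIA did not overlap, and the 34-day arrays were the highest. In CIA before therapy it was 3.56 and 3.55. In MS it was 4.35 and 3.45 at 1 hour and 5.91 and 5.35 at 34 days, with no overlap. In MTX it was 3.61 and 3.50 at 1 hour and 4.80 and 4.09 at 34 days, with no overlap either. In PLA it was 3.60 and 5.04 at 1 hour and 3.79 and 3.85 at 34 days, and in ANE 3.91 and 5.46 at 1 hour and 4.70 and 3.08 at 34 days. In these arms 1 array at 1 hour stood above both arrays at 34 days. Replicate 2 of ANE at 34 days was the lowest of all, with 0 of its 20 spots well above background.

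The level of rno-miR-338 ran from 5.54 to 8.57 with a median of 6.45. In NOCIA it was 6.50 and 6.56 before therapy, 5.95 and 6.19 at 1 hour, and 7.24 and 6.85 at 34 days, again with no overlap between the times. In CIA before therapy it was 6.19 and 6.14. In MS it was 7.77 and 6.42 at 1 hour and 8.57 and 6.99 at 34 days. The 2 highest arrays of all were replicate 1 of MS at each time. In MTX it was 6.52 and 5.54 at 1 hour and 6.87 and 6.15 at 34 days, with overlap. In PLA it was 6.20 and 6.86 at 1 hour and 6.16 and 6.30 at 34 days, with overlap. In ANE it was 6.55 and 6.47 at 1 hour and 6.41 and 5.76 at 34 days, the later arrays being lower.

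**Figure D1:**
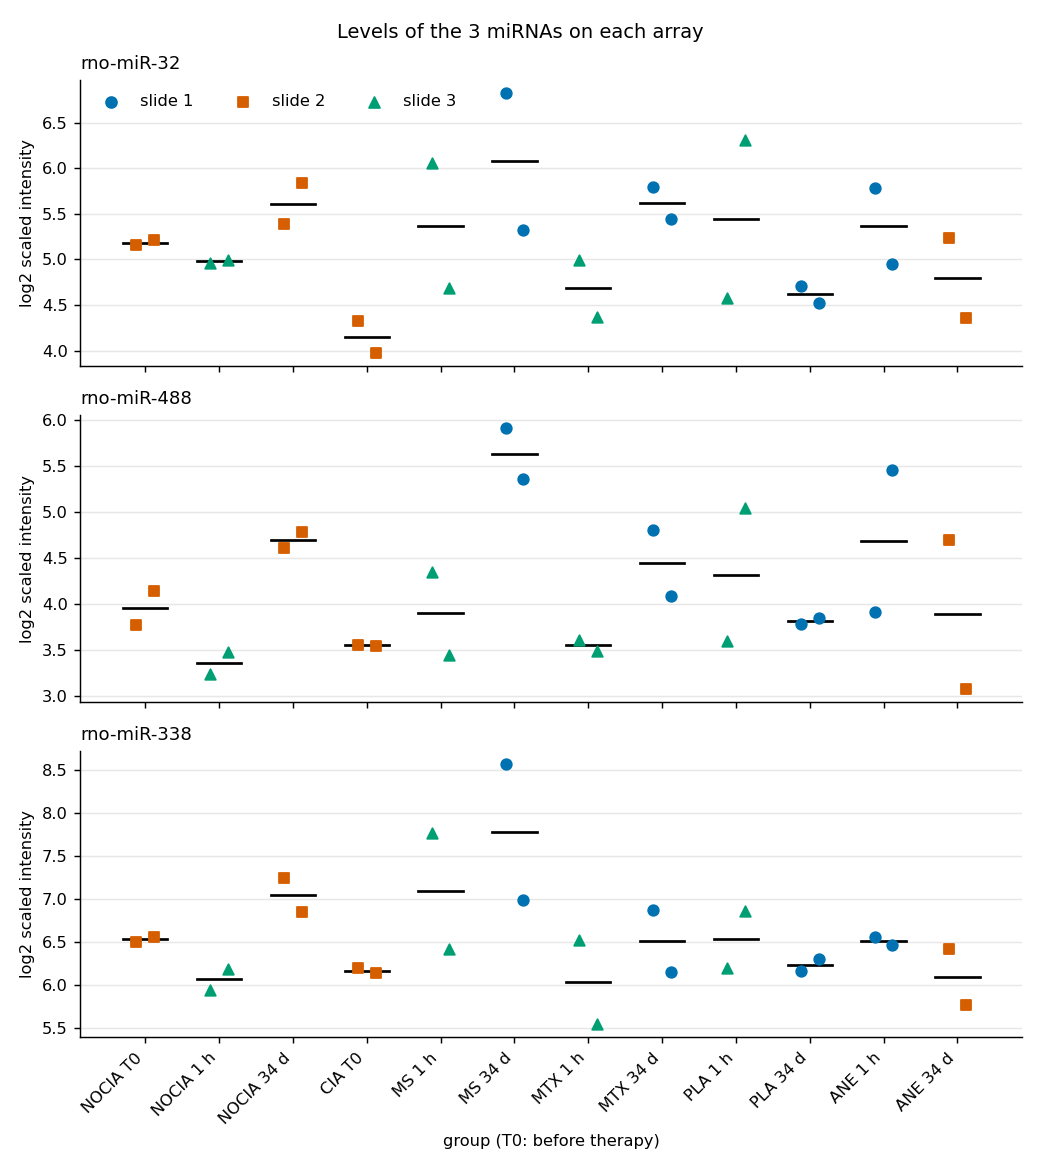
Level of each miRNA (log2 scaled intensity, y axis) on the 24 arrays by group (x axis; T0 is before therapy). Points are arrays, coloured by slide, and bars are group means of 2 arrays. For rno-miR-488 both MS arrays at 34 days (5.91 and 5.35) stand above the other groups' means, but replicate 2 of ANE at 1 hour (5.46) lies between them. For rno-miR-338 and rno-miR-32 replicate 1 of MS is far above replicate 2.

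Ordered by group mean, MS at 34 days was first for all 3, which their choice favours. For rno-miR-32 the mean of MS was 6.07 ± 1.07 (log2, SD, n = 2), followed by MTX at 34 days with 5.62 ± 0.25 and NOCIA at 34 days with 5.61 ± 0.32. CIA before therapy came last with 4.15 ± 0.25. For rno-miR-488 the mean of MS was 5.63 ± 0.39, followed by NOCIA at 34 days with 4.70 ± 0.12, and NOCIA at 1 hour came last with 3.36 ± 0.17. For rno-miR-338 the mean of MS was 7.78 ± 1.11, followed by MS at 1 hour with 7.09 ± 0.95 and NOCIA at 34 days with 7.04 ± 0.28, and MTX at 1 hour came last with 6.03 ± 0.69. Healthy animals at 34 days thus held place 2 or 3 for each miRNA.

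Few neighbours in these orders differed by more than the pooled SD of the pair. Of the 11 neighbouring pairs this held for 2 with rno-miR-32, which were NOCIA before therapy over NOCIA at 1 hour, and PLA at 34 days over CIA before therapy. It held for 3 with rno-miR-488, which were MS over NOCIA at 34 days, PLA at 34 days over MTX at 1 hour, and CIA before therapy over NOCIA at 1 hour. It held for 2 with rno-miR-338, which were NOCIA at 34 days over PLA at 1 hour, and ANE at 1 hour over PLA at 34 days. The other neighbours did not differ beyond their spread.

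The comparison that chose the 3 miRNAs was MS at 34 days against CIA before therapy, made across slides. There 40 of 210 miRNAs (19% of those tested) were called, 33 of them higher (15.7%). The members were chosen on this comparison, so their own calls and ranks are no finding. The log2 difference was 2.08 (SE 0.58) for rno-miR-488, 1.92 (SE 0.60) for rno-miR-32 and 1.61 (SE 0.51) for rno-miR-338, ranks 1, 2 and 4 among the 31 higher calls detected on all 4 arrays. rno-miR-497 lay just above rno-miR-338 with 1.65 and rno-miR-210 just below it with 1.54. Both MS arrays were higher than both CIA arrays for each member, as for 43.3% of all miRNAs tested. Without replicate 1 of MS at 34 days the differences were 1.80, 1.17 and 0.83, with 0 miRNAs called. Without its replicate 2 they were 2.35, 2.68 and 2.40, with 103 called. Without replicate 1 or replicate 2 of CIA before therapy, 1 and 0 miRNAs were called, and none was a member.

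The probes behind these totals were not the same on every array. Agilent's software sums over the probes it counts as detected, and rno-miR-32 and rno-miR-488 each have 4 probes of 5 spots. For rno-miR-488, 1 probe was counted on all 24 arrays, another on 9 and another only on replicate 1 of MS at 34 days. For rno-miR-32, 2 probes were counted on all arrays and another on 13. For rno-miR-338 both of its 2 probes of 10 spots were counted on all 24 arrays. In CIA before therapy 1 probe of rno-miR-488 and 2 of rno-miR-32 entered each total, while on both MS arrays at 34 days more were added. With the probes counted on every array, an alternative chosen after the data were seen, the difference between MS at 34 days and CIA was 1.58 for rno-miR-488 and 1.63 for rno-miR-32, and it stayed at 1.61 for rno-miR-338. The mean of all spots gave 0.52 for rno-miR-488 and 0.93 for rno-miR-32, against 1.63 for rno-miR-338. The 2 probes of rno-miR-338 gave 1.59 and 1.63, the 2 of rno-miR-32 gave 1.52 and 1.72, and the single one of rno-miR-488 gave 1.58.

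**Figure D2:**
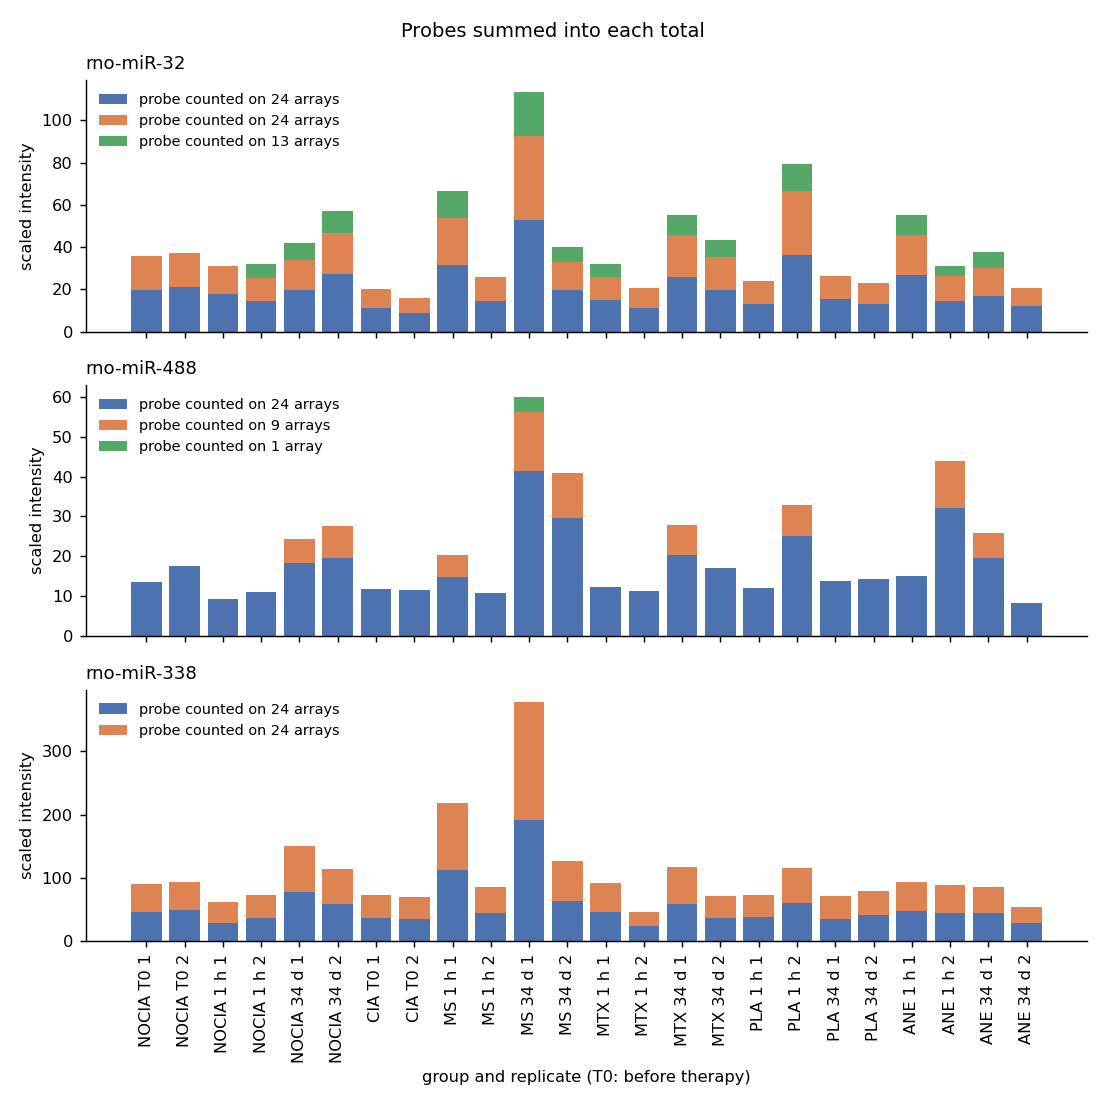
Scaled intensity (linear, y axis) of each miRNA on each array (x axis; group and replicate, T0 is before therapy), stacked by the probes summed into its total. rno-miR-338 always holds 2 probes, rno-miR-32 gains another on 13 arrays and rno-miR-488 on 9.

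Against the other groups on slide 1, the MS animals at 34 days were higher than PLA at 34 days by 1.46 (SE 0.60) for rno-miR-32, 1.81 (SE 0.58) for rno-miR-488 and 1.55 (SE 0.51) for rno-miR-338. No array of the pair overlapped, as for 43.3% of all miRNAs tested in that direction, and 0 of 210 (0%) were called. Against MTX at 34 days the differences were 0.46, 1.19 and 1.27, and the arrays overlapped for rno-miR-32 only, where 23.8% of all miRNAs were higher on both MS arrays and 0% were called. Against ANE at 1 hour they were 0.70, 0.94 and 1.27, with overlap for the first 2 (13.3% of all miRNAs were higher on both MS arrays, and 0.476% were called). Values of the other arms at 34 days against the same CIA arrays follow side by side, since they share these controls. ANE lay on the slide of the CIA arrays and the other 3 arms on another slide. rno-miR-32 was at 1.92 in MS, 1.47 in MTX, 0.64 in ANE and 0.47 in PLA. rno-miR-488 was at 2.08, 0.89, 0.34 and 0.27. rno-miR-338 was at 1.61, 0.35, -0.076 and 0.065. Both arrays of all 4 arms lay above both CIA arrays for rno-miR-32. This was so in MS, MTX and PLA for rno-miR-488, and in MS alone for rno-miR-338. On both arrays, 16.2% of all miRNAs were higher in MTX, 17.6% in ANE and 14.3% in PLA.

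The values at 1 hour against CIA before therapy were across slides in all 4 arms. They are a description, since the CIA arrays took part in the choice. rno-miR-32 was above both CIA arrays in all 4 arms, and CIA before therapy was the lowest of its 12 groups. In MTX the margin was small, with 4.37 on the lower array against 4.33 on the higher CIA array. The differences of rno-miR-32 were 1.22 (SE 0.60) in MS, 0.53 in MTX, 1.22 in ANE and 1.30 in PLA. rno-miR-488 was at 0.35 in MS, 0.0019 in MTX, 1.13 in ANE and 0.76 in PLA, and rno-miR-338 at 0.93, -0.13, 0.35 and 0.37. The arrays overlapped with CIA in MS and MTX for rno-miR-488 and in MTX for rno-miR-338. On both arrays, 13.3% of all miRNAs were higher in MS, 18.6% in MTX, 36.2% in ANE and 29.5% in PLA.

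The change from 1 hour to 34 days asks whether the later samples of an arm differ from its earlier ones. In every arm the 2 times lay on different slides, so that within an arm time and slide cannot be told apart. It can be tested in the arms that the choice did not use. In untreated healthy animals all 3 miRNAs were higher at 34 days on both arrays, by 1.33 (SE 0.58, 95% interval 0.090 to 2.58) for rno-miR-488, 0.97 (SE 0.51) for rno-miR-338 and 0.63 (SE 0.60) for rno-miR-32. With limma 0 of the 3 were called, with adjusted p 0.56, 0.845 and 0.868, where 1.43% of 210 miRNAs were called. Both arrays at 34 days were higher for 21.4% of all miRNAs. The unadjusted p of rno-miR-488 was 0.0374, the only value under 0.05 among the 36 tests of a member. Scaled to the 75th percentile over all miRNAs, its difference was 2.01 and was called with limma (adjusted p 0.0358). That percentile is taken over all 677 miRNAs, of which 170 to 178 were detected on these arrays. It therefore lies close to the weakest detected values. With the authors' log2 table the difference was 0.16. The SE of these changes in NOCIA rest on 1 spread shared by all 12 groups. With the compared arrays alone they were 0.13 for rno-miR-488, 0.20 for rno-miR-338 and 0.20 for rno-miR-32, and again 0 of the 3 were called.

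In MTX the 34-day arrays were higher than the 1-hour arrays by 0.93 (SE 0.60) for rno-miR-32, 0.89 (SE 0.58) for rno-miR-488 and 0.48 (SE 0.51) for rno-miR-338. With limma 0 of 3 were called (adjusted p 0.792, 0.792 and 0.911; 1.43% of all miRNAs were called). The groups did not overlap for the first 2, a pattern that held for 5.24% of all miRNAs in that direction. In PLA the differences were -0.83 (SE 0.60), -0.50 (SE 0.58) and -0.30 (SE 0.51), the arrays overlapped for all 3 (15.2% of all miRNAs were higher and 27.6% lower on both later arrays), and 0 of 3 were called (adjusted p 0.757, 0.785 and 0.814; 1.43% called). These 3 values turned positive without replicate 2 of PLA at 1 hour, at 0.038, 0.22 and 0.029. With scaling over all miRNAs they were 0.16, 0.49 and 0.69. In ANE the differences were -0.58 (SE 0.60), -0.80 (SE 0.58) and -0.42 (SE 0.51), and 0 of 3 were called (adjusted p 0.673, 0.655 and 0.721; 0% called). Only rno-miR-338 did not overlap there, with both later arrays lower as for 26.2% of all miRNAs, while 17.1% were higher. In MS, described only, the differences were 0.70 (SE 0.60), 1.73 (SE 0.58) and 0.68 (SE 0.51), with no overlap for rno-miR-488 alone, as for 32.4% of all miRNAs (0% called).

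**Figure D3:**
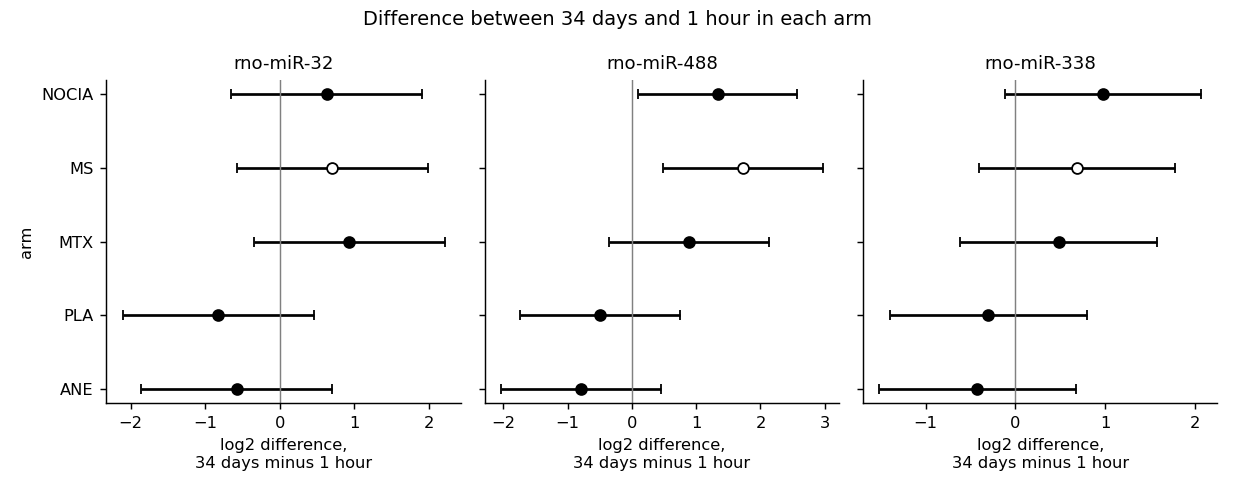
Log2 difference between 34 days and 1 hour (x axis) in each arm (y axis) for each miRNA. Points are differences of 2-array means, bars 95% intervals from the fit over 24 arrays, filled points were tested and open points (MS) only described. All 3 miRNAs lie above 0 in NOCIA, MS and MTX and below 0 in PLA and ANE, and of the tested intervals only that of rno-miR-488 in NOCIA (0.090 to 2.58) leaves out 0.

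A difference between slides cancels where the change of one arm is set against that of another arm on the same slides. The change in MTX exceeded that in PLA by 1.76 (SE 0.84, 95% interval -0.050 to 3.57) for rno-miR-32, 1.39 (SE 0.82) for rno-miR-488 and 0.78 (SE 0.72) for rno-miR-338. With limma 0 of 3 were called, with adjusted p 0.599, 0.599 and 0.684, and 0% of all miRNAs were called. The change in MS exceeded that in PLA by 1.53 (SE 0.84), 2.23 (SE 0.82) and 0.99 (SE 0.72), as a description, again with 0% called. These values depended on PLA at 1 hour. Without its replicate 2, which was high for all 3, the excess of MTX was 0.90, 0.66 and 0.45 and that of MS 0.66, 1.51 and 0.65. Without its replicate 1 it was 2.63, 2.11 and 1.11 for MTX and 2.39, 2.95 and 1.32 for MS.

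The remaining tests compared groups on 1 slide. MTX exceeded PLA at 34 days by 1.00 (SE 0.60) for rno-miR-32, 0.62 (SE 0.58) for rno-miR-488 and 0.28 (SE 0.51) for rno-miR-338, with adjusted p 0.922 for each and 0% of all miRNAs called. The first 2 did not overlap, as for 15.7% of all miRNAs in that direction. At 1 hour MTX lay below PLA by -0.76, -0.76 and -0.50 (adjusted p 0.884 for each, 0% called). MS differed from PLA at 1 hour by -0.073, -0.42 and 0.56 (adjusted p 1, 0.862 and 0.789; 0.952% called), and the first 2 were above 0 without scaling, at 0.39 and 0.045. The arrays overlapped in both of these comparisons. On both arrays, 14.8% of all miRNAs were higher and 8.57% lower in MTX than in PLA, and 2.86% higher and 21.4% lower in MS than in PLA. PLA exceeded NOCIA at 1 hour by 0.46, 0.95 and 0.46 (adjusted p 0.99 for each, 0% called), without overlap for rno-miR-488 and rno-miR-338, as for 8.57% of all miRNAs (7.62% were lower). ANE lay below NOCIA at 34 days by -0.82, -0.81 and -0.95 (adjusted p 1 for each, 0% called), without overlap for rno-miR-32 and rno-miR-338, as for 20.5%.

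Within healthy animals on slide 2, the level at 34 days exceeded that before therapy by 0.43 (SE 0.60) for rno-miR-32, 0.74 (SE 0.58) for rno-miR-488 and 0.51 (SE 0.51) for rno-miR-338. The arrays did not overlap, as for 47.1% of all miRNAs, and 0 of 3 were called (adjusted p 0.876, 0.79 and 0.811; 0.952% called). At 1 hour they lay below the level before therapy by -0.20, -0.59 and -0.46, across slides, with 0 of 3 called (adjusted p 0.995, 0.926 and 0.96; 2.38% called) and 15.2% of all miRNAs lower on both arrays. Arthritis before therapy was on the same slide as its healthy controls. As a description, CIA lay below NOCIA by -1.04 (SE 0.60), -0.40 (SE 0.58) and -0.37 (SE 0.51), without overlap, as for 31% of all miRNAs, and 0.952% were called. Over the 36 tests the half-width of the unadjusted 95% interval ran from 1.09 to 1.81 on the log2 scale. At an unadjusted p under 0.05, limma gave 4 to 23 of the 210 miRNAs in each of the 12 tested comparisons.

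The levels of the 3 miRNAs were correlated over the arrays. Over the 24 arrays Pearson's r was 0.82 between rno-miR-32 and rno-miR-338, 0.75 between rno-miR-488 and rno-miR-338, and 0.73 between rno-miR-32 and rno-miR-488. The values with rank correlation were 0.78, 0.77 and 0.73. Without the 2 MS arrays at 34 days r was 0.75, 0.62 and 0.66, and within groups, as deviations from group means, 0.83, 0.59 and 0.55. These are descriptions, since the points share the RNA sample and the scaling of their array. Each member had a higher r with a miRNA outside the 3 than with either other member. The highest was 0.92 for rno-miR-32, 0.86 for rno-miR-488 and 0.90 for rno-miR-338. Each is the top value among 144 others, so it cannot show how common the r between members is. In 9 of the 12 groups the same replicate was the higher one for all 3 miRNAs. In each of these 9 it was the array with the higher summed intensity. How often this holds for other miRNAs is not given here.

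The level also moved with the summed intensity of the array before scaling. Over 24 arrays r with the log2 summed intensity was 0.70 for rno-miR-32, 0.77 for rno-miR-488 and 0.83 for rno-miR-338. The median over the 145 miRNAs detected on at least 20 arrays was 0.23, and 38, 25 and 14 of these had a higher r than the respective member. Without the MS arrays at 34 days the values were 0.58, 0.63 and 0.69. The highest summed intensities were 519917 on replicate 1 of MS at 34 days, 371061 on replicate 1 of MS at 1 hour and 305171 on replicate 2 of MS at 34 days, against 167322 and 163860 in CIA before therapy. The part of this in the differences was not tested.

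**Figure D4:**
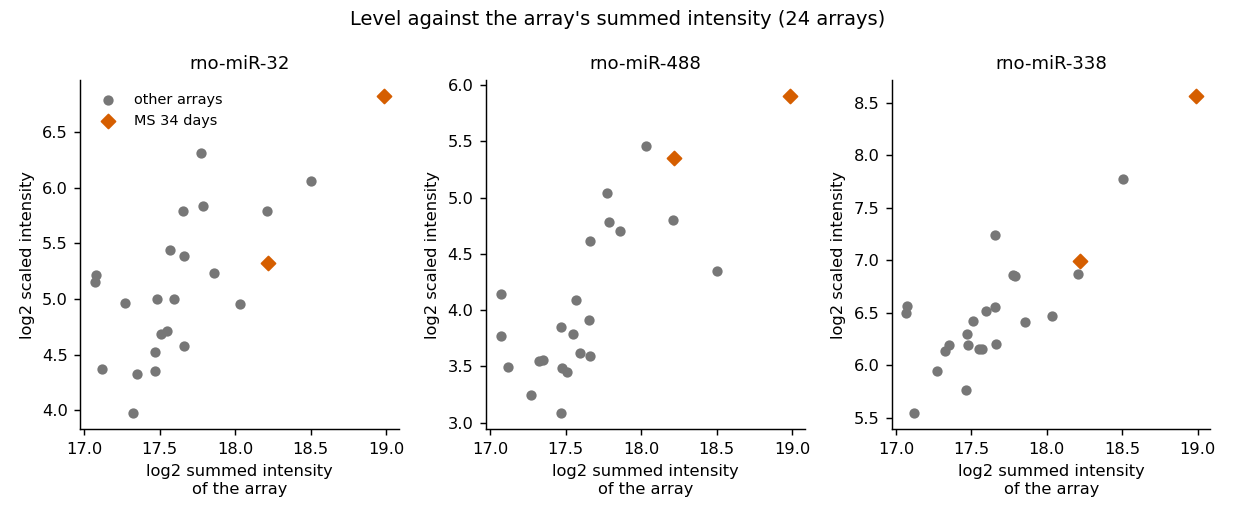
Level of each miRNA (log2 scaled intensity, y axis) against the log2 summed intensity of the detected miRNAs on the array (x axis) for 24 arrays. Diamonds are the 2 MS arrays at 34 days. The brightest array, with a summed intensity of 519917, carries the highest level of all 3 miRNAs.

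The relatives of miR-32 share its seed but lie elsewhere, miR-25 in the Mcm7 gene, and miR-92a and miR-363 in miRNA clusters. rno-miR-25, rno-miR-92a and rno-miR-363 were detected on all 24 arrays, and rno-miR-92b on 1, so 3 relatives were tested. In MS at 34 days rno-miR-363 was at 6.39 and 7.30, below its 7.85 and 7.93 in CIA before therapy. The difference was -1.05 (SE 0.47). rno-miR-25 was at 9.78 and 9.77 against 10.36 and 10.10 (-0.46, SE 0.22). rno-miR-92a was at 12.81 and 12.27 against 11.999 and 12.25 (0.42, SE 0.21). These values are a description, since this comparison chose rno-miR-32. Of the 3 relatives 0 were called, beside 19% of all miRNAs. Their median difference was -0.46 where that over all 210 miRNAs was 0.16. In the change of NOCIA from 1 hour to 34 days 0 of 3 were called too, beside 1.43% of all miRNAs. The median there was -0.29 against 0.0 over all. rno-miR-32 was at 1.92 and 0.63 in the same comparisons.

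**Figure D5:**
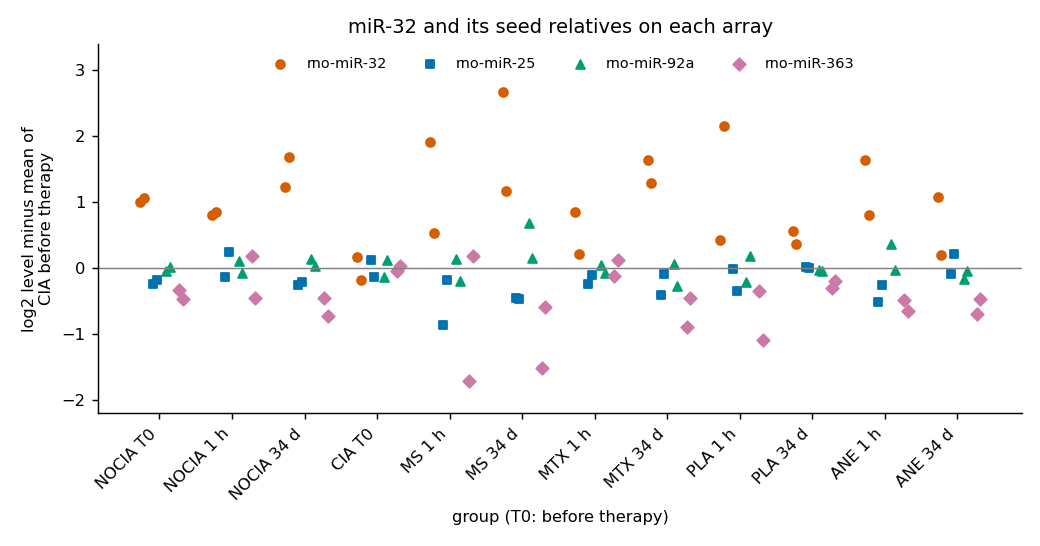
Log2 level minus the mean of CIA before therapy (y axis) of rno-miR-32 and its 3 detected seed relatives on each array (x axis: group, T0 is before therapy). In MS at 34 days both points of rno-miR-32 lie above 0, both of rno-miR-25 and rno-miR-363 below 0 and both of rno-miR-92a above 0, with mean differences of 1.92, -0.46, -1.05 and 0.42.

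The table gives gene spans and no exons, so a position inside a gene was not shown to be intronic. Of the 168 tested miRNAs that matched a hairpin of the table, 65 (38.7%) lay with all their loci inside a protein-coding gene on its strand, and 97 had no such locus. Leaving out the members, 62 were such miRNAs. In MS at 34 days against CIA, 8 of these 62 were called higher and 3 lower, with a median difference of 0.11. Of the 97 others 19 were called higher and 2 lower, with a median of 0.26. Of a list of miRNAs known as intronic 26 were tested, with 5 called higher, 0 lower and a median of 0.53. Over all 210 the share called was 19% and the median 0.16. The list and the gene table did not fully match. By the table rno-miR-326, which was called higher, and rno-miR-324-5p lay inside no protein-coding gene on their strand. Only some loci of rno-miR-7a did. The listed rno-miR-15b, rno-miR-28, rno-miR-106b, rno-miR-126, rno-miR-151 and rno-miR-152 matched no hairpin of the table, so it could not place them. In the change of NOCIA from 1 hour to 34 days 0 of the 26 and 0 of the 62 were called, beside 1.43% of all 210. In MTX against PLA at 34 days the counts were 0 too, beside 0% of all 210.

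Of 20 other miRNAs known from the nervous system, 13 were detected on no array, beside 432 of all 677 miRNAs, and 6 were tested. Among the undetected were rno-miR-124 and rno-miR-9, abundant in neurons and their precursors. In MS at 34 days against CIA 1 of the 6 was called, beside 19% of all 210 miRNAs. It was rno-miR-128, which also lies inside genes on its strand and was at 12.41 against 11.25 in group mean. rno-miR-383, detected on 18 of the 24 arrays, had the largest difference of the 6, with group means of 6.09 against 3.20, and rno-miR-7a was at 7.91 against 9.29. Neither was called. The median of the 6 was 0.62, beside 0.16 over all 210. It was set by rno-miR-138 (3.21 against 2.59) and rno-miR-219-5p (3.24 against 2.61). These were detected on 4 and 6 arrays and lay close to the floor of 2.53.

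The miRNAs most like each member over 24 arrays, among 144 others detected on at least 20 arrays, were these. For rno-miR-32 they were rno-miR-301a (r = 0.92), rno-miR-19a (0.90) and rno-miR-23a (0.89). For rno-miR-488 they were rno-miR-210 (0.86), a miRNA induced by low oxygen, rno-miR-322 (0.86) and rno-miR-181d (0.82). For rno-miR-338 they were rno-miR-130a (0.90), rno-miR-181c (0.89) and rno-miR-19a (0.87). Without the MS arrays at 34 days the 9 values ran from 0.71 to 0.90. rno-miR-301a itself lies inside Ska2.

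Markers of other cells were checked against the PBMC label. All 7 mononuclear markers were detected on all 24 arrays, and all 3 muscle markers on none. The median difference of these 7 between MS at 34 days and CIA before therapy was -0.80, beside 0.16 over all 210 miRNAs. Of the 7, 2 were above 0 and 1 was called, higher, beside 19% of all miRNAs called and 15.7% called higher. Their log2 summed level was 14.77 to 14.82 in MS at 34 days and 14.96 to 15.06 in CIA before therapy. Within that list rno-miR-150, a lymphocyte miRNA, had a mean of 10.99 in MS against 13.42 in CIA, and rno-miR-223, a myeloid miRNA, 13.33 against 12.43. rno-miR-146a had 7.86 against 9.39, rno-miR-342-3p 9.84 against 11.13 and rno-miR-181a 9.38 against 10.17. The means differed little for rno-miR-142-3p, 13.56 against 13.44, and rno-miR-142-5p, 9.74 against 9.92. The summed level of the 2 red cell markers on the array was 12.19 to 13.09 against 12.07 to 14.72. That of the 3 platelet and endothelial markers was 6.86 to 7.78 in MS and 6.18 to 6.36 in CIA, carried by rno-miR-126 with a mean of 7.15 against 5.98. The liver miRNA rno-miR-122 was detected on 9 arrays, none in either group. In other comparisons these markers differed more. The difference of rno-miR-122 was -5.22 in NOCIA at 34 days and -4.56 at 1 hour, both against NOCIA before therapy, and -5.14 in CIA against NOCIA before therapy, all 3 called. Of all miRNAs 0.952%, 2.38% and 0.952% were called there. For rno-miR-122 it was 4.58 in ANE at 1 hour against CIA before therapy and -4.67 in MS at 34 days against ANE at 1 hour. Both were called, beside 0.476% of all miRNAs in each. Within ANE it was -3.97 between 1 hour and 34 days and was not called (0% of all miRNAs were). Between the same times the median difference of the 2 red cell markers was 2.13 in ANE and -1.09 in NOCIA. In each 0 of 2 were called, beside 0% and 1.43% of all miRNAs. The part of these cell types in the differences was not tested.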

How the data were processed

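Groups and replicate numbers came from the sample titles (for NOCIA at 34 days 1 label line names 1 hour, and 34 days was used). PBMC RNA was hybridised to 24 rat miRNA arrays with 1 dye, and the scanner software was Feature Extraction 10.7.3.1 by the file headers. It gave the deposited intensity values, linear and background-corrected but not normalised between arrays, with detection flags. The authors also deposited a log2 table summarised with AgiMicroRna, for which the processing notes name RMA, and it served as an alternative.

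The 3 miRNAs and all lists were chosen with earlier results of these data known. Total intensity was divided by each array's 75th percentile over the 132 miRNAs detected on all arrays (factors 0.452 to 1.42), floored at 5.76 (2.53 on the log2 scale) and logged. Every miRNA with detection on 3 or more arrays, 210 in all, entered a limma 3.58.1 fit (R 4.3.3) of 12 group means, which left 12 residual degrees of freedom and assumes that groups vary alike. All p are two-sided and were adjusted by Benjamini-Hochberg over the 210. The 12 comparisons without MS at 34 days or CIA before therapy were tested and 14 described. No exact permutation test of 2 arrays against 2 can reach 0.05. The number of arrays limits the precision, and the p-values measure only the spread between these samples. Other miRNAs named are the other arms, the seed relatives, members of the lists, neighbours in rank, and the 3 most like each member. Alternatives were other scalings, floors, filters, probe summaries, a replicate block and leaving out each array. The probes were designed on rn4, and RefSeq positions are on GRCr8. The fit was tested on simulated data.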

Additional observations from a re-analysis of the deposited data

Results flagged for a closer look

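In rno-miR-338 the change from 1 hour to 34 days ran in opposite directions in 2 arms with no overlap between the times in either. It was 0.97 on the log2 scale in NOCIA, where both later arrays were higher, and -0.42 in ANE, where both later arrays were lower. The difference between these changes was not tested. NOCIA went from slide 3 to slide 2 and ANE from slide 1 to slide 2, so a difference between slides does not cancel. Samples were groups of 2, so no array could be examined as an outlier of its group.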

How the results depend on the processing

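No member was called in any of the 12 tested comparisons. Under the alternatives 218 such counts stayed at 0 and 2 did not. In NOCIA at 34 days against 1 hour, 1 member (rno-miR-488) passed with scaling over all miRNAs (2.01) and 1 with the study's threshold on fold and unadjusted p. That scaling uses a percentile close to the weakest detected values. With the replicate number as a block, the count was 0 in every tested comparison. Replicate numbers did not pair the samples (r between groups -0.77 to 0.84, median -0.034). Slide and scan could not be fitted as blocks, since each group lay on 1 slide. In MS at 34 days against CIA, which chose the members, 40 miRNAs were called. This count was 132 without scaling, 0 with scaling over all miRNAs, 9 with quantile normalisation, 70 with the authors' log2 table, 61 with the replicate block, 65 over the miRNAs detected on all arrays, 60 with the same probes, and 0 each with no detection filter and with the compared arrays alone. Leaving out 1 array gave 0 to 103. Of the 3 members, 0 were called there with scaling over all miRNAs, with quantile normalisation, with no detection filter, with the compared arrays alone, and without either CIA array or replicate 1 of MS, while 2 were called with the authors' log2 table and 1 with the mean spot value. In tested comparisons 27 member differences changed sign, none of them called, and the cause was not tested. For PLA at 34 days against 1 hour, scaling over all miRNAs gave 0.16, 0.49 and 0.69 for rno-miR-32, rno-miR-488 and rno-miR-338, and quantile normalisation 0.33 for rno-miR-488. For MS against PLA at 1 hour, rno-miR-32 was at 0.39 without scaling, 0.75 with scaling over all miRNAs, 0.46 with quantile normalisation, 0.53 with the authors' log2 table and 0.10 with normexp, and rno-miR-488 at 0.045, 0.41, 0.30 and 0.091 with the first 4. The other changes of sign came from leaving out 1 array, given here as ranges. For PLA at 34 days against 1 hour they were -1.69 to 0.038 (rno-miR-32), -1.22 to 0.22 (rno-miR-488) and -0.63 to 0.029 (rno-miR-338). For MS against PLA at 1 hour they were -0.94 to 0.79, -1.14 to 0.30 and -0.11 to 1.24. rno-miR-32 ran from -1.63 to 0.10 in MTX against PLA and from -0.40 to 1.33 in PLA against NOCIA, both at 1 hour. rno-miR-488 ran from -1.60 to 0.013 in ANE between the times and from -1.61 to 0.0028 in ANE against NOCIA at 34 days. rno-miR-338 ran from -0.0083 to 0.97 in MTX between the times and from -0.075 to 0.64 in MTX against PLA at 34 days. The median of all miRNAs moved by up to 1.15 without scaling and by up to -0.93 with scaling over all miRNAs. Of the described differences, 103 moved by more than their spread and 623 did not.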
